A study of Homo sapiens with 6 samples.

Results

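Transcripts of 10 genes encoding alpha and beta tubulin were measured by RNA-seq in the human myeloma line LP-1 after viral delivery of a guide that targets AURKA, which encodes the mitotic kinase Aurora A. The 10 genes, of 17579 in the gene table, were chosen by symbol: the alpha tubulins TUBA1A, TUBA1B, TUBA1C and TUBA4A and the beta tubulins TUBB, TUBB2A, TUBB2B, TUBB3, TUBB4B and TUBB6. The AURKA-guide group had 3 libraries, and the control group, LP-1 cells given a guide without a target, also had 3; cells of both groups were grown in serum-containing medium and harvested as bulk cultures. The labels name no other allele or agent, and they do not say whether the guide-carrying cells were a pool or 1 clone, nor whether replicates came from separate cultures, so the spread behind each p-value is that of these samples alone and could be technical.

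Alpha and beta tubulin form the heterodimer from which microtubules, and with them the mitotic spindle, are built. Each subunit is encoded by a family of related genes, the isotypes. They differ mainly at the end of the protein that faces away from the microtubule wall. Cells adjust tubulin synthesis to the pool of free dimers: TTC5 recognises the first amino acids of a tubulin chain as it leaves the ribosome and, with SCAPER and the CCR4-NOT deadenylase, starts decay of that tubulin mRNA. Aurora A acts at centrosomes and spindle poles, where it promotes microtubule nucleation and spindle assembly.

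The coding starts are shown because they hold the codons on which this control of tubulin mRNA depends, and because they show how little separates the paralogs among which reads had to be divided. Sequences were read from GENCODE release 29 on GRCh38, 5′ to 3′ on the coding strand; they are the reference sequence and not that of LP-1, and the coordinates are not those of the hg19 build of the deposited tables. Capitals mark the first 4 codons of each coding sequence.
TUBA1B: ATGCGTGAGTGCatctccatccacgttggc
TUBA4A: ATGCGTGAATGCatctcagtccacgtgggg
TUBB: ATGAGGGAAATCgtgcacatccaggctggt
TUBB2A: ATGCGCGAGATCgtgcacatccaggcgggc
TUBB2B: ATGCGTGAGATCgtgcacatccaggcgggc
TUBB3: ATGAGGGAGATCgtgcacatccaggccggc
TUBB4B: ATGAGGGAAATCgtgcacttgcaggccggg
TUBB6: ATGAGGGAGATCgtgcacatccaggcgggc

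The 30 bases of TUBA1B were also those of TUBA1A and TUBA1C. In the alpha genes they lie in 2 exons, so that the intervals include an intron: chr12:49129696-49131300 on the minus strand for TUBA1B, chr12:49186807-49188979 on the minus strand for TUBA1A, chr12:49265182-49269491 on the plus strand for TUBA1C and chr2:219252204-219253858 on the minus strand for TUBA4A. In the beta genes they lie in 1 exon: chr6:30720507-30720536 on the plus strand for TUBB, chr6:3157434-3157463 and chr6:3227514-3227543 on the minus strand for TUBB2A and TUBB2B, chr16:89923402-89923431 for TUBB3, chr9:137241361-137241390 for TUBB4B and chr18:12308293-12308322 for TUBB6, the last 3 on the plus strand. TUBA1A, TUBA1B and TUBA1C thus neighbour each other on chromosome 12, and TUBB2A and TUBB2B on chromosome 6.

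The close pairs were alike along the whole coding sequence. TUBA1A and TUBA1B were identical at 97.2% of aligned coding bases, with 38 differing bases of 1356, and TUBA1C was identical to them at 95.9% (TUBA1A) and 96.8% (TUBA1B). TUBB2A and TUBB2B were identical at 98.1%, with 25 differing bases of 1338, and TUBA4A matched the other alpha genes at 84.4% to 85.7%. The ends of TUBB2A (chr6:3153863-3153922, minus strand) and TUBB2B (chr6:3224751-3224810, minus strand) are shown because results on this pair follow; capitals mark the 2 bases that differ among the last 60 coding bases, stop codon included.
TUBB2A end: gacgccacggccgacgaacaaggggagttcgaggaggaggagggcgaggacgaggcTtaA
TUBB2B end: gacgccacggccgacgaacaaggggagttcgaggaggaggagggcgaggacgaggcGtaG

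Shared stretches limit what a single gene's value means. Of all 50-base windows of the transcript, 60.3% in TUBB2A, 56.6% in TUBA1B, 47.3% in TUBB2B, 40.9% in TUBA1A and 25.1% in TUBA1C occurred letter for letter in a transcript of another of the 10 genes. The share was 8.66% in TUBB3, 5.92% in TUBB4B, 0.993% in TUBB6 and 0% in TUBA4A and TUBB. TUBB shared 18.2% of its windows with other genes, among them the pseudogene TUBBP1, and TUBB3 shared 89.4%, mostly with an overlapping annotated transcript, AC092143.1. The deposited values are estimates that divide such reads by a model, so the values of TUBA1A, TUBA1B and TUBA1C, of TUBB2A and TUBB2B, and of TUBB3 are uncertain one by one, and the first 2 sets are given as sums too.

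Total expected counts were 17724174 to 18523594 per library. AURKA (gene ID 6790) had 113, 119 and 113 normalised counts (CPM, counts scaled to library size) in AURKA-guide replicates 1, 2 and 3, against 189, 192 and 195 CPM in control replicates 1, 2 and 3, so its RNA was lowered and not lost. Its log2 fold change was -0.74 (SE 0.0488, edgeR quasi-likelihood adjusted p = 1.55e-06). All 6 plasma cell markers were present in every library, from SDC1 at 84.6 to 100.4 CPM to XBP1, and summed to 2925 to 2938 CPM in AURKA-guide and 2982 to 3009 CPM in control libraries. Of these 6, CD38 was called higher, with a log2 fold change of 0.38, the other 5 were below 0, and 3 had an unadjusted p under 0.05. Markers of neurons, the cells for which TUBB3 is itself a marker, summed to 2.06 to 2.19 CPM in AURKA-guide and 1.51 to 2.91 CPM in control libraries. Those of T and NK cells summed to at most 0.378 CPM and erythroid ones to at most 0.457 CPM. Myeloid markers summed to 5.03 to 5.72 CPM in AURKA-guide and 5.37 to 5.84 CPM in control libraries. Stromal markers summed to 5.09 to 5.94 and 4.73 to 5.73 CPM, and epithelial markers to 2.93 to 3.82 and 3.54 to 4.63 CPM, in the same order. The 3 epithelial markers tested were all below 0 (log2), 1 with an unadjusted p under 0.05, and edgeR called 0. The edgeR test covered 13138 genes and called 267 of them (2.03%) at an adjusted p of 0.05, 126 higher and 141 lower. Control replicate 3 stood apart: without it 2034 genes passed, whereas without any other single library 98 to 234 did.

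LP-1 cells of both groups carried mainly TUBA1B and TUBB, and none of the 9 tubulin genes that could be tested passed the test between groups. TUBB, the main beta tubulin of dividing cells, stood at a ratio of 0.976 and TUBA1B, the main alpha tubulin, at 1.01, each with an interval that spans 1. TUBB2B, TUBB2A and TUBA4A were at 0.881, 0.882 and 0.916 of the control level, short of the threshold. TUBB6 was too low to be tested. In bulk samples, fewer cells of a kind and less RNA per cell cannot be told apart.

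The levels of the genes can be set beside each other only per length, as FPKM, the authors' fragments per kilobase scaled to library size. TUBB led with a mean of 1005 FPKM over the 6 libraries and a range of 986 to 1025, and TUBA1B followed with 966 and a range of 918 to 999, so that the ranges of the top 2 overlapped. TUBA1C had 278 FPKM (262 to 291), TUBB4B 162 (155 to 168), TUBA4A 63.5 (58.4 to 69.3) and TUBB2B 53.2 (48.5 to 59.1). TUBA4A and TUBB2B overlapped in range; all other neighbours in the order were separate. TUBA1A had 28.0 FPKM, TUBB2A 9.48, TUBB3 1.36 and TUBB6 0.207, the last resting on 4.04 to 11.1 expected counts per library. By mean FPKM, TUBB ranked 77 and TUBA1B 80 among the 13138 genes tested. By CPM, which does not correct for length, they ranked 17 and 37.

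**Figure D1:**
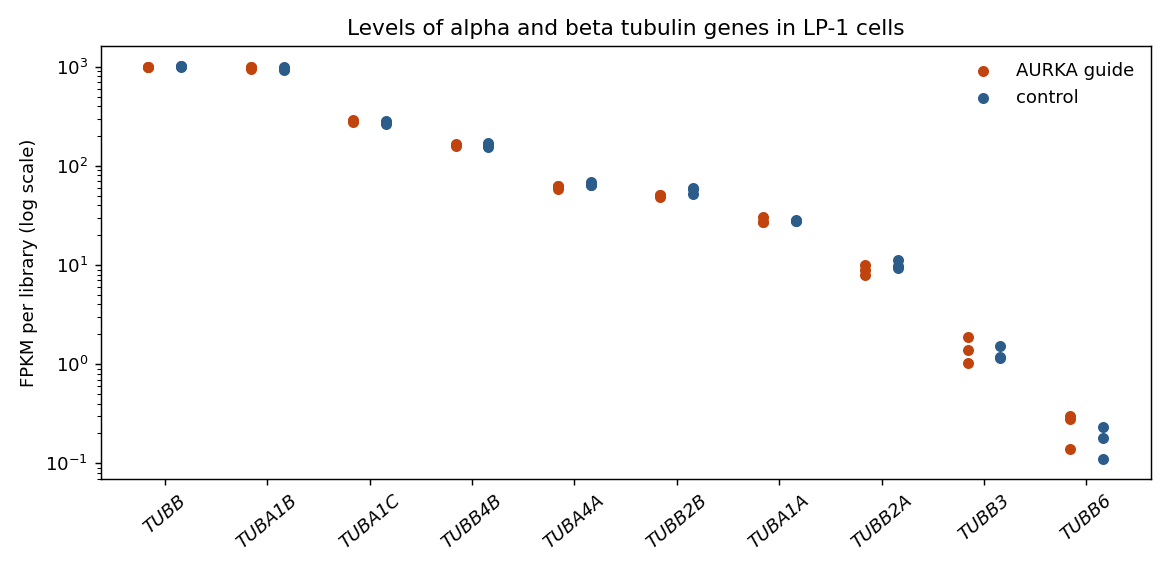
FPKM of the 10 tubulin genes in each library on a log axis, AURKA-guide libraries in red on the left and control libraries in blue on the right of each gene; points are libraries. Levels ran from 986 to 1025 FPKM for TUBB to at most 0.30 FPKM for TUBB6, and within a gene the groups lay close together.

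Among the alpha genes, TUBA1B (gene ID 10376), the alpha tubulin made in nearly all dividing cells, had 1729.7, 1733 and 1645 CPM in AURKA-guide replicates 1, 2 and 3, against 1674, 1769 and 1597 CPM in control replicates 1, 2 and 3. The groups overlapped, and control libraries held both the highest and the lowest value. The log2 fold change was 0.019 (SE 0.0460, 95% interval -0.08 to 0.12, edgeR adjusted p = 0.870). TUBA1C (gene ID 84790), also a widely made alpha-1 gene, had 464, 478 and 451 CPM in AURKA-guide libraries, against 459, 457.7 and 427 CPM in control libraries. These groups overlapped as well, since only control replicate 3 lay below all AURKA-guide libraries, and the difference was 0.05 (log2, SE 0.0472, interval -0.05 to 0.15, adjusted p = 0.608). TUBA1A (gene ID 7846), known as the alpha tubulin of developing neurons, averaged 54.1 ± 3.67 CPM in AURKA-guide and 54.0 ± 1.04 CPM in control libraries (SD, n = 3 each), with a log2 fold change of 0.0023 (SE 0.0623, interval -0.13 to 0.14, edgeR adjusted p = 0.990).

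In many alpha tubulins the terminal tyrosine is removed and put back by enzymes. Of the 4 alpha genes here, TUBA4A (gene ID 7277) is the one that lacks a codon for that tyrosine. The last 30 coding bases show this; capitals mark the last codon before the stop, a tyrosine codon in TUBA1C and a glutamate codon in TUBA4A. They lie at chr12:49273198-49273227 on the plus strand (TUBA1C) and chr2:219250352-219250381 on the minus strand (TUBA4A).
TUBA1C end: gacggagaggatgagggtgaagagTATtaa
TUBA4A end: tatgaggacgaggatgagggagaaGAAtaa

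TUBA4A had 91.3, 91.5 and 83.0 CPM in AURKA-guide replicates 1, 2 and 3, against 93.8, 104 and 92.7 CPM in control replicates 1, 2 and 3. All AURKA-guide libraries lay below all control libraries. The log2 fold change was -0.13 (SE 0.0610, interval -0.26 to 0.0033, edgeR adjusted p = 0.323), which did not pass. TUBA4A transcripts had a GC content of 57.8%, against a median of 48.5% over the genes tested, and with an offset that removes each library's trend with GC content the log2 fold change was -0.07 (adjusted p = 0.350). TUBA4A had no 50-base window in common with the other members and 5.25% in common with TUBA4B. Its FPKM made up 4.56%, 4.58% and 4.46% of the summed alpha FPKM in AURKA-guide libraries, against 4.85%, 5.05% and 5.03% in control libraries. The shares did not overlap either; they come from the same reads and were not tested.

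Among the beta genes, TUBB (gene ID 203068) had 2676, 2687 and 2624 CPM in AURKA-guide replicates 1, 2 and 3, against 2741, 2786 and 2661 CPM in control replicates 1, 2 and 3. Control replicate 3 lay among the AURKA-guide libraries and the other control libraries above them. The log2 fold change was -0.036 (SE 0.0387, interval -0.12 to 0.05, edgeR adjusted p = 0.686). TUBB4B (gene ID 10383), a beta tubulin found in most cells and prominent in cilia, averaged 258 ± 8.51 CPM in AURKA-guide and 257 ± 12.7 CPM in control libraries (SD, n = 3 each), a log2 fold change of 0.0050 (SE 0.0507, interval -0.10 to 0.11, edgeR adjusted p = 0.973). With the GC offset it was 0.08 (adjusted p = 0.148).

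TUBB2B (gene ID 347733), a beta tubulin best known from developing brain, had 102, 103 and 97.4 CPM in AURKA-guide replicates 1, 2 and 3, against 117, 121 and 106 CPM in control replicates 1, 2 and 3. The groups did not overlap, and control replicate 3 was the control library nearest to the AURKA-guide ones. The log2 fold change was -0.18 (SE 0.0585, interval -0.31 to -0.06, edgeR unadjusted p = 0.0070 and adjusted p = 0.143). Without control replicate 3 it was -0.24 with an edgeR adjusted p of 0.0032, in a fit where 2034 of 13283 genes passed. TUBB2B transcripts had a GC content of 57.0%, against a median of 48.5% over the genes tested. With the GC offset the log2 fold change was -0.13 with an edgeR adjusted p of 0.0343. In that fit 789 of 13138 genes passed. So the call turned on 1 control library and on that offset, while the direction was the same under all 17 alternatives.

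TUBB2A (gene ID 7280), the near-copy of TUBB2B, had 16.2, 12.7 and 14.3 CPM in AURKA-guide libraries, against 18.0, 16.1 and 14.9 CPM in control libraries. The groups overlapped, and the log2 fold change of -0.18 (SE 0.101, interval -0.40 to 0.03, edgeR adjusted p = 0.392) had the same size as that of TUBB2B; with the GC offset it was -0.11. Summed, the pair had 118, 115 and 112 CPM in AURKA-guide replicates 1, 2 and 3, against 135, 137 and 120.5 CPM in control replicates 1, 2 and 3. The sums did not overlap, and their ratio was 0.881, which does not depend on how reads were divided between the 2 genes. It can still depend on reads shared with other annotated genes, since both share windows with TUBB2BP1 and AC092143.1. TUBB3 (gene ID 10381), the neuronal beta tubulin, averaged 2.52 ± 0.718 CPM in AURKA-guide and 2.28 ± 0.401 CPM in control libraries (SD, n = 3 each), and its interval of -0.33 to 0.63 (log2) leaves room for sizeable differences either way. TUBB6 (gene ID 84617) had 0.271 to 0.600 CPM in AURKA-guide and 0.216 to 0.514 CPM in control libraries.

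**Figure D2:**
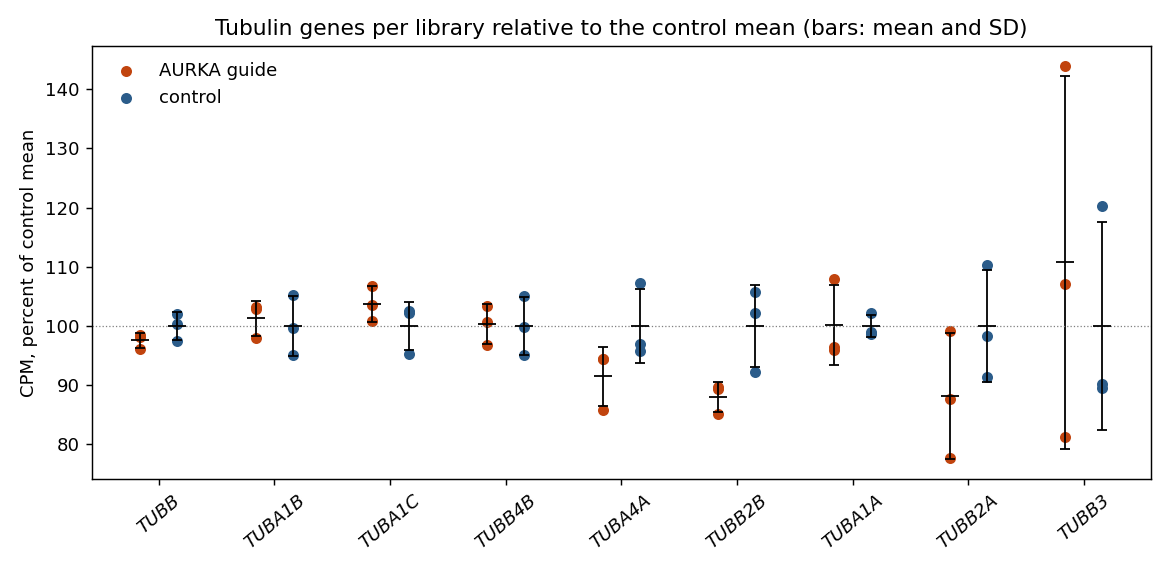
CPM of each tested tubulin gene in each library as a percent of the mean of the control libraries, with the mean and SD of each group as bars; AURKA-guide libraries are red and on the left, control libraries blue and on the right. TUBB2B and TUBA4A are the genes in which every AURKA-guide library lies below every control library, and control replicate 3 is the lowest of the control libraries in both.

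By edgeR, 0 of the 9 genes tested passed an adjusted p of 0.05, where 2.03% of all genes did, 0.959% higher and 1.07% lower; 1 had an unadjusted p under 0.05 (TUBB2B), against 16.1% of all genes. DESeq2 and limma-trend called 0 of the 9 too. The groups did not overlap in 2 of the 9, both lower in the AURKA guide, where 10.2% of all genes were lower without overlap and 10.5% higher. The fold change was above 0 in 5 genes and below 0 in 4, with a median of 0.0023 (log2), while the median over all genes was -0.0001. For TUBB, TUBA1B, TUBA1C and TUBB4B the 95% intervals lay within -0.12 and 0.15 (log2); among all called genes with at least 50 CPM, the smallest log2 fold change was 0.20 in size. The authors' deposited gene table of changed genes holds 229 genes and none of the 10; in the authors' deposited transcript table, 24 transcripts of these genes have a q-value and none is under 0.05, the lowest being 0.370 for TUBB2B.

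**Figure D3:**
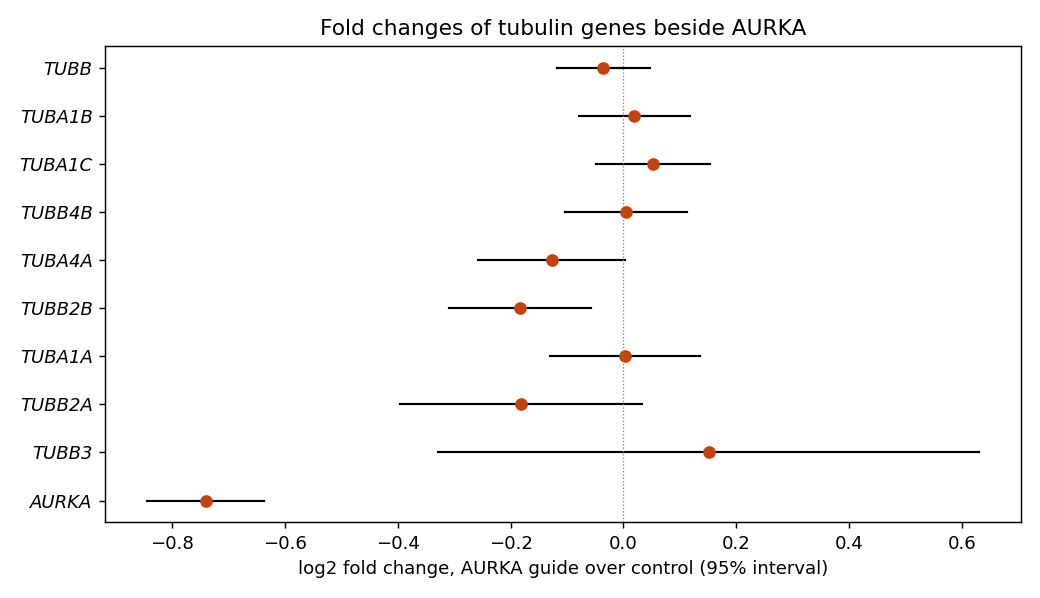
Log2 fold change (AURKA guide over control) of the 9 tested tubulin genes with 95% intervals from edgeR, and AURKA at the bottom for scale. Every tubulin interval except that of TUBB2B (-0.31 to -0.06) includes 0, and AURKA is at -0.74.

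The summed tubulin RNA of the groups lay close together. All 10 together made 5408, 5419 and 5219 CPM in AURKA-guide replicates 1, 2 and 3, against 5415, 5582 and 5199 CPM in control replicates 1, 2 and 3, a ratio of means of 0.991. Control libraries held both extremes. The alpha genes summed to 2309.8 ± 68.2 CPM in AURKA-guide and 2279 ± 108 CPM in control libraries (ratio 1.01), and the beta genes to 3039 ± 44.5 CPM in AURKA-guide and 3119.7 ± 84.6 CPM in control libraries (ratio 0.974; SD, n = 3 each). The alpha-1 trio summed to 2221 ± 63.4 CPM in AURKA-guide and 2182 ± 103 CPM in control libraries. Each of these sums differed between groups by less than the SD of the control libraries, and the groups overlapped.

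The ratio of summed alpha to summed beta FPKM was 1.11, 1.12 and 1.09 in AURKA-guide replicates 1, 2 and 3, against 1.06, 1.09 and 1.04 in control replicates 1, 2 and 3. The groups touched without overlapping: the lowest AURKA-guide ratio was 1.0883 and the highest control ratio 1.0856. It is a value without a test. Within the families, TUBA1B gave 72.3% ± 0.144 of alpha FPKM in AURKA-guide and 72.3% ± 0.421 in control libraries, and TUBB gave 81.7% ± 0.391 of beta FPKM in AURKA-guide and 81.6% ± 0.498 in control libraries (SD, n = 3 each). TUBB2B gave 4.12%, 4.14% and 4.03% of beta FPKM in AURKA-guide libraries, against 4.62%, 4.68% and 4.31% in control libraries, again without overlap.

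At the level of transcripts, 25 annotated transcripts of the 10 genes were in the table, 16 could be tested, and edgeR called 0 of them (1 of 43979 transcripts in all, 0.00227%). Only the single transcript of TUBB2B had an unadjusted p under 0.05, and the share of all transcripts under that p is not given here. DESeq2 called 0 of the 16, and 891 transcripts in all. TUBA1B, TUBB2B, TUBB3 and TUBB4B each had 1 transcript. Most other genes were carried by 1 transcript, but TUBA4A was divided between XM_017004824.1, with 62.0%, 63.7% and 67.0% of its counts in AURKA-guide libraries against 63.3%, 60.3% and 63.2% in control libraries, and NM_006000.2. The log2 fold change was -0.09 (SE 0.0524) for XM_017004824.1 and -0.21 (SE 0.132) for NM_006000.2, so both lay on the same side.

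TUBB was divided differently between replicates of the same group, in both groups, as was TUBB6 with its few counts. The TUBB main transcript NM_178014.3 took 99.0%, 91.9% and 96.0% of the gene's counts in AURKA-guide replicates 1, 2 and 3, against 99.3%, 99.5% and 92.5% in control replicates 1, 2 and 3. The difference went mostly to NM_001293214.1, which was given 7.42, 3715 and 1396 expected counts in AURKA-guide replicates, against 1.27, 0 and 3429 in control replicates. High and low libraries occurred in both groups, and the gene's total stayed between 48408 and 50696 expected counts. The swings lay in how the reads were divided and not in their total, and no fold change of this transcript is read.

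**Figure D4:**
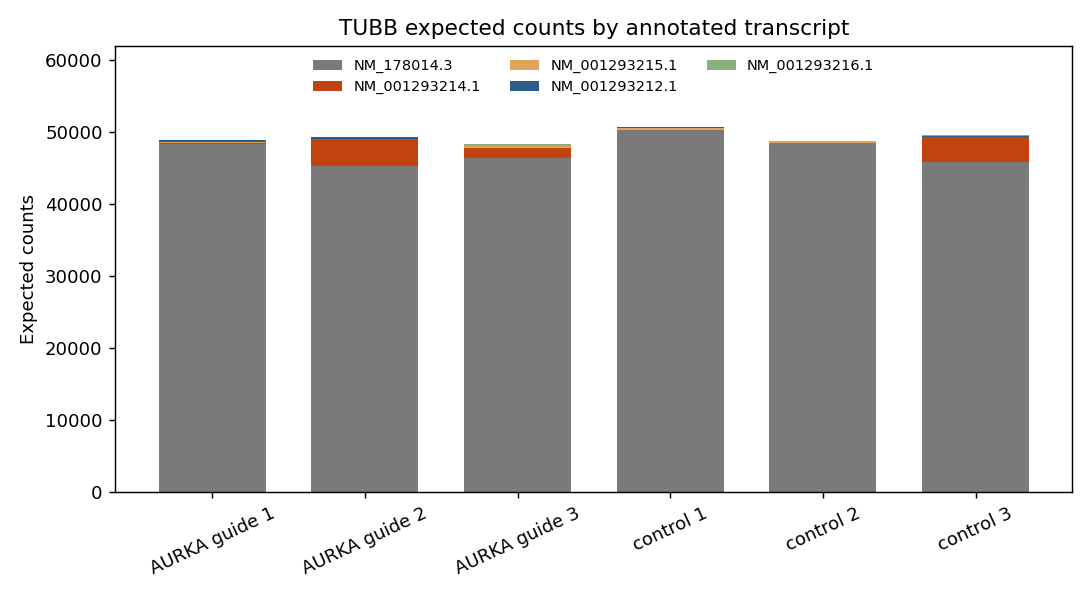
Expected counts of TUBB in the 6 libraries, stacked by annotated transcript, AURKA-guide libraries left and control libraries right. The bars are of nearly equal height; NM_178014.3 takes 91.9% to 99.5%, and NM_001293214.1 is high in AURKA-guide replicate 2 (7.54%) and control replicate 3 (6.92%) and near 0 in 3 libraries.

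The other genes of tubulin biology were looked at in 7 lists, beside 2.03% of all genes called and 16.1% with an unadjusted p under 0.05. Passes without control replicate 3 stand beside 2034 of 13283 genes that passed in that fit. The remaining tubulins, 7 of 12 tested, had 0 calls by edgeR, 2 unadjusted p under 0.05 and a median log2 fold change of -0.10. Both were gamma tubulins, which nucleate microtubules: TUBG1 had 234, 238 and 227 CPM in AURKA-guide libraries, against 259, 281 and 242 CPM in control libraries. TUBG2 had 84.1, 83.1 and 78.4 CPM in AURKA-guide libraries, against 95.5, 97.5 and 84.7 CPM in control libraries. Neither pair of groups overlapped, and the log2 fold changes were -0.16 (SE 0.0555, edgeR adjusted p = 0.171) and -0.18 (SE 0.0618, edgeR adjusted p = 0.180). TUBG1 and TUBG2 are themselves close copies and may exchange reads; both passed without control replicate 3, at edgeR adjusted p of 0.0050 and 0.0045. The delta tubulin TUBD1 was at 0.16 (log2, SE 0.0865).

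Of 21 folding genes, which make up the prefoldin and CCT chaperonins and the tubulin cofactors, edgeR called 0, with 2 unadjusted p under 0.05 and a median of -0.01 (log2). ARL2, a small GTPase that works with the cofactors that assemble the dimer, was at -0.20 (log2, SE 0.0588, edgeR adjusted p = 0.105), and the chaperonin subunits CCT2 and CCT8 at 0.11 (SE 0.0470) and 0.10 (SE 0.0555). Without control replicate 3 all 3 of these passed, ARL2 lower (edgeR adjusted p = 0.0061), CCT2 higher (0.0411) and CCT8 higher (0.0174). They were 3 of the 21 folding genes, where 2034 of 13283 genes passed in that fit.

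The machinery of tubulin mRNA decay did not pass either: of 12 genes edgeR called 0, with 2 unadjusted p under 0.05 and a median of 0.05 (log2). TTC5, which reads the nascent tubulin chain, averaged 8.70 CPM in AURKA-guide and 8.32 CPM in control libraries, a log2 fold change of 0.06 (SE 0.112, interval -0.18 to 0.30). SCAPER, which links TTC5 to the deadenylase, had 26.7, 25.4 and 26.5 CPM in AURKA-guide libraries, against 22.002, 19.7 and 26.2 CPM in control libraries. Here control replicate 3 lay among the AURKA-guide libraries; the log2 fold change was 0.21 (SE 0.0911, edgeR adjusted p = 0.274), and 0.33 without that library (adjusted p = 0.0080). The CCR4-NOT subunits CNOT2 and CNOT1 were at 0.13 (SE 0.0499) and 0.08 (SE 0.0423). CNOT2 also passed without control replicate 3 (adjusted p = 0.0397), as did 2034 of 13283 genes in all.

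Of 19 tested genes of tubulin modification edgeR called 0, with 2 unadjusted p under 0.05 and a median of -0.04 (log2). AGTPBP1, which trims glutamates from tubulin tails, had 29.5, 32.1 and 32.3 CPM in AURKA-guide libraries, against 26.7, 25.5 and 26.7 CPM in control libraries. The groups did not overlap, and the log2 fold change was 0.25 (SE 0.0673, edgeR adjusted p = 0.0777; 0.0184 without control replicate 3). The detyrosinating enzyme MATCAP1 was at -0.17 (SE 0.0708) and the glycylase TTLL3 at 0.25 (SE 0.135). MATCAP1 passed without control replicate 3 (0.0272), where 2034 of 13283 genes in all passed. TTL, the ligase that puts the terminal tyrosine back, averaged 47.0 CPM in AURKA-guide and 49.8 CPM in control libraries, a log2 fold change of -0.08 (SE 0.0601, edgeR adjusted p = 0.513).

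The 12 genes of the gamma-tubulin ring complex and its anchors had 0 edgeR calls, 1 unadjusted p under 0.05 and a median of 0.04 (log2). The anchor AKAP9 was at 0.15 (SE 0.0619, edgeR adjusted p = 0.241), the small subunit gene MZT2B at -0.19 (SE 0.0987) and CDK5RAP2, which activates the complex, at 0.08 (SE 0.0540). AKAP9 and MZT2B, whose groups overlapped, passed without control replicate 3, at edgeR adjusted p of 0.0103 and 0.0083. Of all genes, 2034 of 13283 passed in that fit.

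Among proteins that bind and stabilise microtubules or their ends, 1 of 18 tested genes changed (2.03% of all genes) and 8 had an unadjusted p under 0.05 (16.1% of all genes), with a median of 0.05 (log2). MAPT, which encodes the microtubule-binding protein tau, had 24.4, 22.6 and 20.5 CPM in AURKA-guide replicates 1, 2 and 3, against 28.4, 29.6 and 26.8 CPM in control replicates 1, 2 and 3. All AURKA-guide libraries lay below all control libraries, and MAPT fell by 0.33 on the log2 scale (SE 0.0778, edgeR adjusted p = 0.0426). The call was lost without AURKA-guide replicate 2 (adjusted p = 0.189), AURKA-guide replicate 3 (0.286), control replicate 1 (0.192) or control replicate 2 (0.0805). NUSAP1, which bundles spindle microtubules, averaged 112 CPM in AURKA-guide and 96.3 CPM in control libraries (log2 fold change 0.21, SE 0.0548, edgeR adjusted p = 0.0651), and the polymerase CKAP5, a partner of Aurora A at the spindle pole, averaged 298 CPM in AURKA-guide and 268 CPM in control libraries (0.15, SE 0.0459). DESeq2 called MAPT (adjusted p = 0.0429) and NUSAP1 (adjusted p = 0.0401).

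Among genes whose products shorten or sever microtubules, 10 of 14 were tested, edgeR called 0, 5 had an unadjusted p under 0.05 (16.1% of all genes) and the median was 0.07 (log2). KIF2C, the depolymerising kinesin of centromeres, had 124, 122 and 122 CPM in AURKA-guide libraries, against 109.9, 106 and 107 CPM in control libraries. The groups were well apart; the log2 fold change of 0.19 (SE 0.0484) had an edgeR adjusted p of 0.0610 and a DESeq2 adjusted p of 0.0457. KIF18A, a kinesin that limits spindle length, was at 0.24 (SE 0.0674, edgeR adjusted p = 0.101). In list genes named by the rule with a fold change above 0, transcript GC content ran from 34.1% (CNOT2) to 55.3% (TTLL3). In those below 0 it ran from 57.4% (MAPT) to 67.8% (MZT2B). These genes were picked by p, and the split did not hold over all list genes. For example, TACC3 (57.8%) was at 0.11 and MAP1B (44.9%) at -0.14 (log2). With the GC offset, MAPT (edgeR adjusted p = 0.0085), NUSAP1 (0.0071), CKAP5 (0.0193), AGTPBP1 (0.0421) and KIF2C (0.0014) passed, each in the direction given. Of all genes, 789 of 13138 passed with that offset.

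**Figure D5:**
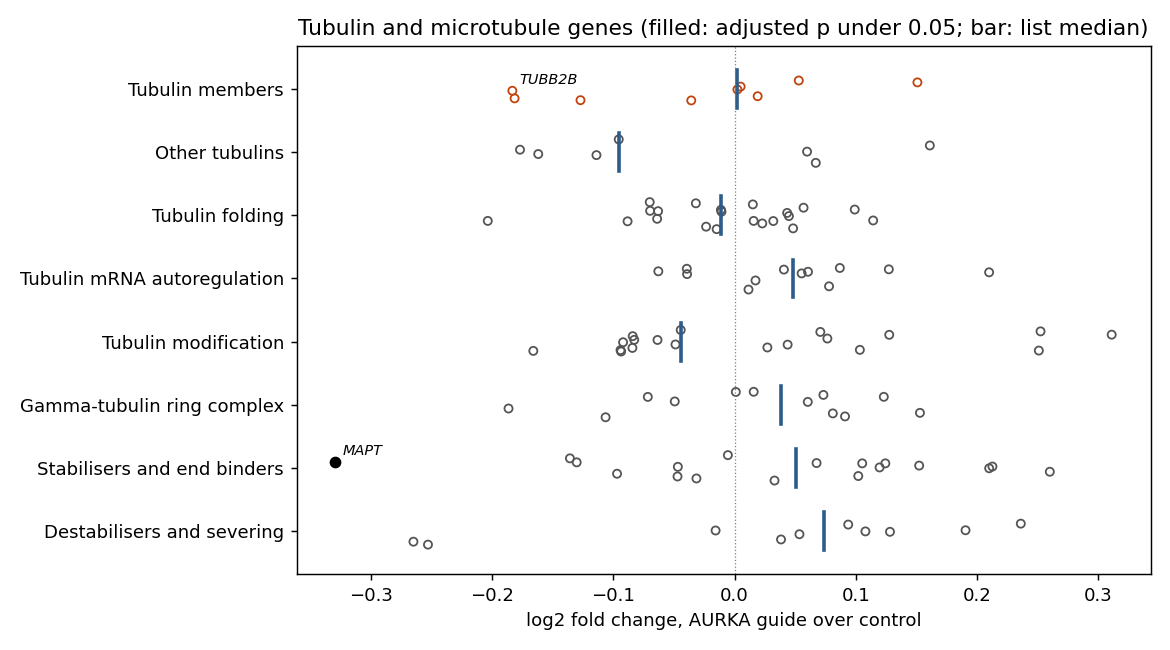
Log2 fold change (AURKA guide over control) of every tested gene in the tubulin set and the 7 lists, 1 point per gene, with the median of each list as a line; a filled point passed an adjusted p of 0.05 in edgeR. The medians lie between -0.10 and 0.07, and MAPT at -0.33 is the filled point.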

How the data were processed

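RNA-seq of 3 AURKA-guide and 3 control libraries of LP-1 was analysed from the authors' tables. The submitters' processing notes name RSEM, Bowtie2, BWA and the build hg19; for roles, settings, read length and strandedness, the sources used here give nothing. The authors deposited expected counts per gene and per transcript, estimates that divide reads among transcripts (44.8% of gene values were not whole). The authors also deposited FPKM, per the file headers. The authors' deposited tables of comparisons hold log2 fold changes and q-values (adjusted p-values); negative fold changes there mean lower in the AURKA guide.

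Expected counts were rounded to whole numbers before the test in edgeR 4.0.16 (R 4.3.3): filterByExpr (13138 genes, 43979 transcripts), TMM scaling, the quasi-likelihood F test of AURKA guide over control and Benjamini-Hochberg adjustment over all features, threshold 0.05. SEs come from the F statistic, intervals are 95%, and CPM use TMM-scaled library sizes. No test was made on sums, shares or ratios. The test was first tried on simulated data. Total counts lay between 17724174 and 18523594 per library; without molecular identifiers, reads are not separate molecules, and each p rests on the spread between libraries. Replicates of a group were not identical in any pair.

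The members and lists were chosen with earlier results of these data known, so nothing here is independent of those results. Named are AURKA, the 10 members and, per list, each called gene and, at 5 CPM or more on average, the 3 of lowest p; some of these genes and sequences are not reported here. TTC5 and TTL were added for their roles after their values were seen. Alternatives were leaving out each library, a block for the replicate number, other scalings and filters, DESeq2 1.42.0, limma-trend (limma 3.58.1) on log2(FPKM + 1) or log2(FPKM + 0.1) (genes at 0.5 FPKM or more in 3 libraries), and an offset from a spline of GC content (5 degrees of freedom). GC content was found for 95.9% of genes through GENCODE release 29, the source of the sequences. Windows and identities were computed with Python 3.11.15.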

Additional observations from a re-analysis of the deposited data

How the results depend on the processing

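Of 13138 genes, 267 passed; leaving out single libraries gave 98 to 2034, limma-trend without a filter 67, the GC offset 789 and the GC offset with the replicate block 881. Under the replicate block alone 385 passed and TUBB2B was at -0.18 (adjusted p = 0.0688). Same-numbered samples did not deviate together in all pairs (correlations of 0.0631, -0.11 and 0.13), and the labels state no shared batch, so the samples share only a number; the AURKA-guide libraries correlated best with control replicates 2, 3 and 3. TUBB2B passed with the GC offset (-0.13, adjusted p = 0.0343), with the GC offset and replicate block (-0.13, adjusted p = 0.0270) and without control replicate 3; the cause was not tested. DESeq2 called 891 transcripts where edgeR called 1, and leaving out single libraries gave 0 in edgeR.

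Leaving out single libraries gave log2 fold changes of -0.24 to -0.14 for TUBB2B, -0.16 to -0.07 for TUBA4A, -0.27 to -0.099 for TUBB2A, -0.057 to -0.019 for TUBB, 0.016 to 0.07 for TUBA1C, -0.77 to -0.73 for AURKA and -0.39 to -0.27 for MAPT. The sign turned in some of these fits for TUBA1A (-0.056 to 0.032), TUBA1B (-0.019 to 0.060), TUBB3 (-0.083 to 0.33) and TUBB4B (-0.032 to 0.043), and for transcripts of TUBA1A (NM_006009.3, -0.059 to 0.038; NM_001270399.1, -0.32 to 0.25), TUBA1B (NM_006082.2, -0.014 to 0.056), TUBA1C (NM_001303117.1, -0.65 to 0.61), TUBB (NM_001293214.1, -0.69 to 11.4; NM_001293215.1, -1.07 to 0.32), TUBB2A (NM_001310315.1, -0.996 to 0.52), TUBB3 (NM_006086.3, -0.087 to 0.33) and TUBB4B (NM_006088.5, -0.028 to 0.039). The summed log2 ratio ran from -0.040 to 0.011 for all 10 genes and from -0.24 to -0.15 for TUBB2A and TUBB2B together. MAPT did not pass with limma-trend (adjusted p of 0.113 with a pseudocount of 1, 0.115 with 0.1 and 0.232 without a filter).

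With 3 libraries a group, the intervals give the precision of each single tubulin; they are not limits of detection.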
